A study of Mus musculus with 8 samples.

Results

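The genes described here encode the protein folding and quality control machinery of the endoplasmic reticulum (ER): chaperones, disulfide isomerases and oxidases, prolyl isomerases, and the components of ER-associated degradation (ERAD). They were taken from a list of 49 symbols by matching the Ensembl IDs of the count table to GENCODE mouse gene names. The rule uses no measured values, though the list was drawn up with earlier results of these data known. The match gave 47 genes of 55414 in the table, since Vimp is an older name of Selenos and Crelf matched no ID. All 47 passed the low-count filter that left 11929 genes for testing, and the lowest count of any of them in any library was 63, for Derl3.

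Bulk RNA-seq was done on Paneth cells, the granule-filled cells of the crypt base, which were collected by FACS from mouse small intestine. The TG group held 4 libraries from transgenic mice (genotype DT TG), in whose Paneth cells diphtheria toxin is expressed, and 4 libraries of wild type mice formed the WT group. The methods name C57BL/6J as the strain used for sorting in general, with nothing specific to these transgenic mice. Their age, the promoter that drives the toxin and the fate of the cells that make it were not stated in the sources at hand. The series title describes the cells as purified after depletion of Paneth cells, with "mature" in brackets, and no value here measures that depletion. The labels only number the replicates, while the study's text describes its sorted Paneth cell samples in general as taken from individual mice, so p-values measure the spread between libraries taken as separate mice.

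Proteins that enter the secretory pathway fold in the ER with the help of chaperones, are glycosylated, and receive disulfide bonds and proline isomerisation there. Proteins that fail to fold are moved back to the cytosol and degraded by the proteasome, a route called ERAD, and a load of unfolded protein switches on the unfolded protein response (UPR), whose factors XBP1 and ATF6 raise the genes of this machinery. Paneth cells secrete large amounts of lysozyme and of disulfide-bonded alpha-defensins, and they have an extensive rough ER. Diphtheria toxin inactivates an elongation factor and so stops protein synthesis.

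Total counts ranged from 13107397 to 16218434 per library, and 15559 to 16943 genes had counts. Lyz1, the lysozyme gene that marks Paneth cells, had 175230.3 ± 27280 normalised CPM (mean ± SD, n = 4) in TG against 166391 ± 25791 in WT, so the labelled cell type was present in both groups. Normalised CPM are CPM computed with library sizes corrected by TMM, a set of factors that aligns the bulk of the genes between libraries. The mitochondrial share of counts was higher in TG, at 1.15 to 1.53%, than in WT, at 0.566 to 1.10%, with no overlap between the groups. Counts of 4 Y-linked genes were 0 in replicates 1 and 2 of either group and 897 to 1564 in replicates 3 and 4.

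The sequences that bear on these genes are the ER stress response elements of their promoters, which are shown because UPR factors are known to bind them. ERSE, searched as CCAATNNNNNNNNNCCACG, and ERSE-II, searched as ATTGGNCCACG, were looked for on both strands from 250 bases before to 50 bases after the start site of each canonical transcript on GRCm39. ERSE was found in 10 of the 47 promoters (21.3%) and in 15 of those of 11917 tested genes (0.126%), the members included. ERSE-II was found in 4 of 47 (8.51%) and in 10 of 11917 (0.0839%). The shorter UPRE core, TGACGTGG, was found in 3 of 47 (6.38%) and in 101 of 11917 (0.848%). A match is a run of letters and not a shown binding site. The UPRE core matches, in Hyou1, Ube2j1 and Vcp, are left out of the list below. The exact ERSE and ERSE-II matches, on the strand that reads as the motif is written and with the fixed letters in capitals, were as follows.
Hspa5, ERSE: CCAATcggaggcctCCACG
Hsp90b1, ERSE farther from the start: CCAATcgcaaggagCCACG
Hsp90b1, ERSE nearer to the start: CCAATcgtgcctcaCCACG
Creld2, ERSE: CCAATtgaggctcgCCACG
Dnajc3, ERSE: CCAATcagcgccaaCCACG
Calr, ERSE: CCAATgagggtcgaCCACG
Canx, ERSE: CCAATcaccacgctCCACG
Pdia6, ERSE: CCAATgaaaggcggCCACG
Ero1b, ERSE: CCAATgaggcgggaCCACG
Syvn1, ERSE: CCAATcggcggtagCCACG
Derl3, ERSE: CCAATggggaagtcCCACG
Hyou1, ERSE-II farther from the start: ATTGGgCCACG
Hyou1, ERSE-II nearer to the start: ATTGGtCCACG
Manf, ERSE-II: ATTGGtCCACG
Dnajb11, ERSE-II after the start: ATTGGcCCACG
Herpud1, ERSE-II: ATTGGgCCACG

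The 250 bases before the start of Hspa5 and of Hyou1 show how these elements sit in whole promoters. That of Hspa5 lies at chr2:34661854-34662103 on the plus strand, and its ERSE, in capitals, covers bases -67 to -49 when the start site is counted as 0. Further CCAAT letters of this window have no CCACG at the required distance.
Hspa5: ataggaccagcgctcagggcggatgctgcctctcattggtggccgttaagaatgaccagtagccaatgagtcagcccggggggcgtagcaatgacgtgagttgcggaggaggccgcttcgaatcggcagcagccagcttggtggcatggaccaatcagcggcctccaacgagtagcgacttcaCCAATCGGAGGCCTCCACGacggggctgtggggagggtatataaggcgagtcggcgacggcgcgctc
That of Hyou1 lies at chr9:44290523-44290772 on the plus strand. Its first capitals hold a UPRE core at -115 to -108 that overlaps an ERSE-II at -112 to -102, and its last capitals hold an ERSE-II at -11 to -1, with ERSE-II read on the opposite strand in both places.
Hyou1: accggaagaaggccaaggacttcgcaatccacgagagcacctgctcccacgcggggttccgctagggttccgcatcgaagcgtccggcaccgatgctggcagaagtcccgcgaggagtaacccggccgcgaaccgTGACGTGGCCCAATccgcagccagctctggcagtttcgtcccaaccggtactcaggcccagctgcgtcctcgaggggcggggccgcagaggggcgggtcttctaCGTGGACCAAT

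TG was compared with WT to ask how the ER machinery of the sorted cells differed between the genotypes. Of the 47 genes, 25 had an adjusted p below 0.05 and were lower in TG (edgeR quasi-likelihood test, Benjamini-Hochberg over all genes tested), which is 53.2%, where 9.65% of all genes tested were lower. None was higher by edgeR, where 8.26% of all genes tested were, and the number was also 0 at an unadjusted p below 0.05, by DESeq2 and by limma voom. Their median log2 fold change was -0.37, with a range of -1.06 to 0.12, and the median of all genes tested was 0.01. Fitted values were lower in TG for 45 of the 47. In 23 of the 47, every TG library lay below every WT library, which held for 12.0% of all genes tested, and 22 of these 23 were called. Every call was thus in the same direction, and the fitted levels of the called genes fell by 18.1 to 51.9%.

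**Figure D1:**
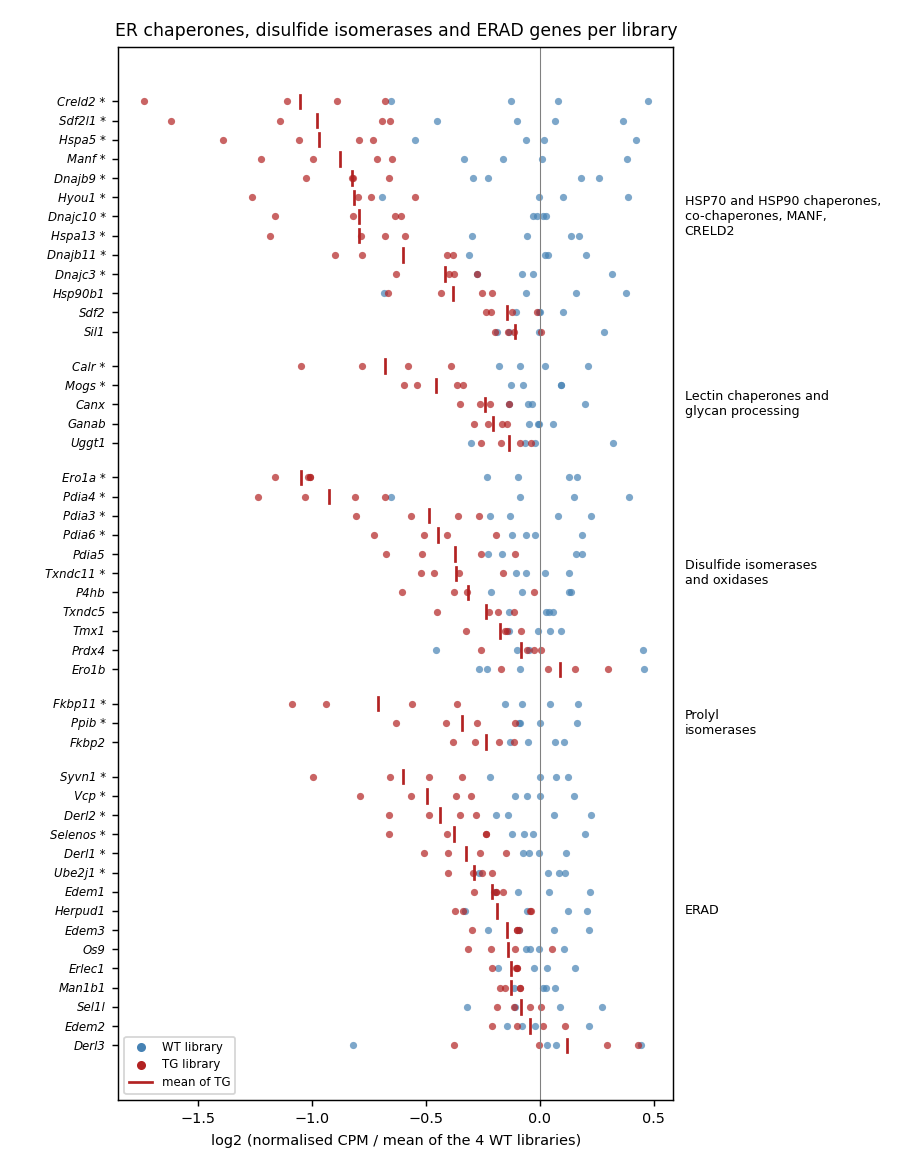
Log2 ratio of the normalised CPM of each library to the mean of the 4 WT libraries, for all 47 genes by role, with WT libraries in blue, TG libraries in red and the TG mean as a red bar. Asterisks mark the 25 genes lower in TG by edgeR, and the HSP70 group at the top holds 10 of them.

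**Figure D2:**
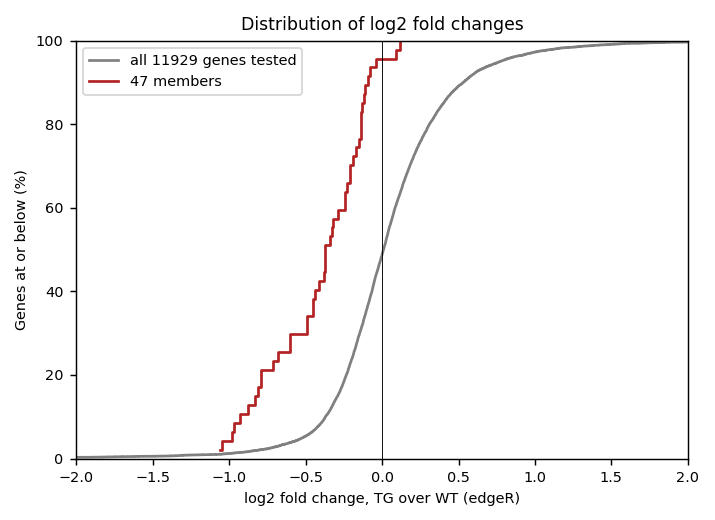
Cumulative distribution of the log2 fold change of TG over WT for the 47 genes (red) and for all 11929 genes tested (grey), with the percentage of genes at or below each value on the vertical axis and values beyond 2 in either direction not drawn. The red curve lies to the left, with a median of -0.37 against 0.01.

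Of the chaperones of the HSP70 and HSP90 families and their partners, 10 of 13 genes were lower, and the median log2 fold change was -0.79. HSP70 proteins bind exposed hydrophobic stretches of unfolded chains, J-domain proteins deliver the chains to them, and nucleotide exchange factors release them. The central chaperone of this group is BiP, encoded by Hspa5 (ENSMUSG00000026864, chromosome 2, 34661982 to 34668880, plus strand, GRCm39).

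Hspa5 had 666, 529, 798 and 834 normalised CPM in TG replicates 1 to 4 and 948, 1330.3, 1403 and 1859 in WT replicates 1 to 4. Every TG library lay below the lowest WT library, and the WT libraries spread over a wider range than the TG ones. Its log2 fold change was -0.97 ± 0.19 (SE), a fall to 0.510 of the WT level, with an edgeR adjusted p of 0.00661. Hspa13, an HSP70 protein of the microsomes, had 52.0, 39.5, 59.6 and 56.0 normalised CPM in TG and 72.9, 98.8, 86.2 and 101 in WT. The groups did not overlap, and the log2 fold change was -0.79 ± 0.13 with an adjusted p of 0.00212.

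Among the J-domain partners of BiP, the clearest separation was that of Dnajc10 (ERdj5), which also reduces disulfide bonds. It had 177, 139.7, 205 and 201 normalised CPM in TG and 319, 306, 309.9 and 316 in WT. The 4 WT values were close together, and the highest TG value was well below them, at a log2 fold change of -0.79 ± 0.11 with an adjusted p of 7.52e-04. Dnajb9 (ERdj4), which also restrains the UPR sensor IRE1, had 84.6, 73.5, 84.9 and 94.7 normalised CPM in TG and 128, 169.7, 122 and 179 in WT. The groups were again separate, with a log2 fold change of -0.83 ± 0.13 (adjusted p of 0.00139). Dnajb11 (ERdj3) had 86.3, 79.6, 112 and 114 normalised CPM in TG and 119.6, 152, 151 and 171 in WT. TG replicates 3 and 4 came close to WT replicate 1 without reaching it, and the log2 fold change was -0.60 ± 0.13 with an adjusted p of 0.00922. Dnajc3 (p58IPK) was also lower, at -0.41 ± 0.12 with an adjusted p of 0.0319, but its groups overlapped.

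Manf, a small secreted ER protein that binds BiP, had 106, 90.6, 135 and 129 normalised CPM in TG and 168, 189, 213 and 276 in WT. No TG library reached the lowest WT library, and the log2 fold change was -0.88 ± 0.16 with an adjusted p of 0.00443. Its exons share 32.6% of their bases with Rbm15b on the same strand, which had 35.9% as many counts and a log2 fold change of -0.30, so the value of Manf is uncertain to that extent. Creld2 (an ER protein with disulfide isomerase activity) and Sdf2l1 (a partner of ERdj3) had log2 fold changes of -1.06 ± 0.29 and -0.98 ± 0.24, with adjusted p of 0.0458 and 0.0271. Their groups did not overlap, but their standard errors were the largest among the called genes, and TG replicate 2 was lowest in both. Creld2 lost its call in 9 of the 18 alternative settings. Hyou1, the large HSP70-like exchange factor of BiP, was lower at -0.81 ± 0.22 (adjusted p of 0.0343), with TG replicate 3 above WT replicate 1, and lost its call in 8 of the 18.

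Not every chaperone of this group passed the test. Hsp90b1, which encodes the HSP90 protein GRP94, had 425, 361, 482 and 496 normalised CPM in TG and 357, 551, 641 and 746 in WT. WT replicate 1 was the lowest of the 8 libraries and the other WT libraries were the highest, so the groups overlapped, and the log2 fold change was -0.38 ± 0.20 with an adjusted p of 0.201. The exchange factor Sil1 and Sdf2, the constitutive relative of Sdf2l1, had log2 fold changes of -0.11 and -0.14 with adjusted p of 0.492 and 0.311. Exons of Sdf2 overlap those of Supt6 on the opposite strand, which had 392% as many counts.

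**Figure D3:**
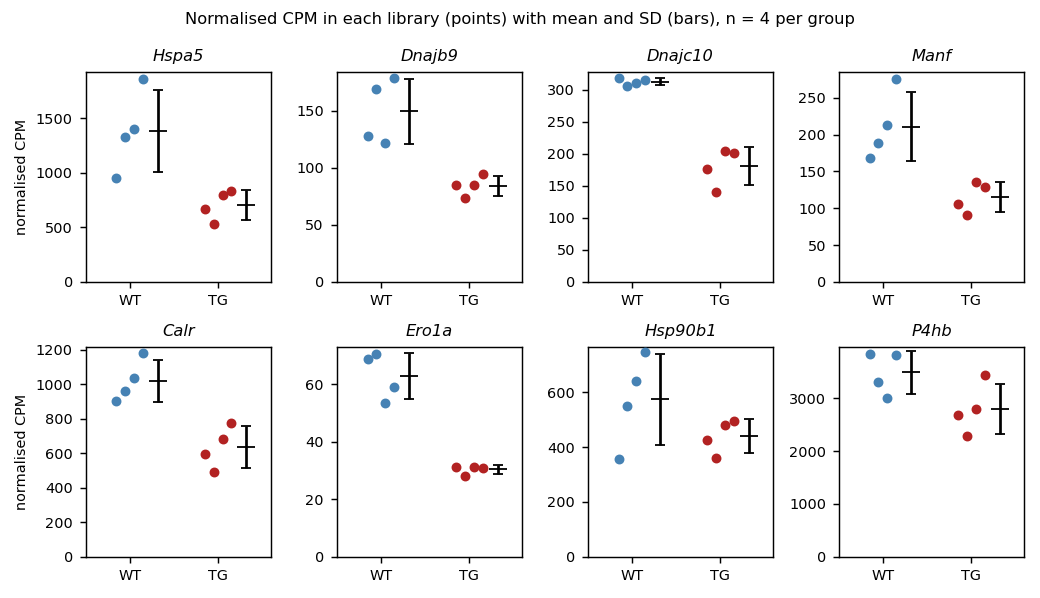
Normalised CPM in each of the 4 WT (blue) and 4 TG (red) libraries, in order of replicate number, for Hspa5, Dnajb9, Dnajc10, Manf, Calr, Ero1a, Hsp90b1 and P4hb, with the mean and SD of each group in black and axes from 0. In the first 6 no TG library reaches the lowest WT library, and in Hsp90b1 and P4hb the groups overlap.

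The lectin chaperone cycle, which holds glycoproteins in the ER until they fold, had 2 of 5 genes lower, Calr and Mogs, with a median log2 fold change of -0.24. Calr, the soluble lectin chaperone calreticulin, had 593, 493, 682 and 778 normalised CPM in TG and 901, 959, 1036 and 1182 in WT. The groups did not overlap, and the log2 fold change was -0.68 ± 0.14 with an adjusted p of 0.00500. Mogs, the glucosidase that trims the first glucose of the glycan, had 77.3, 74.3, 89.0 and 87.5 normalised CPM in TG and 107, 103, 119.9 and 119.8 in WT. All TG values lay below all WT values, with a log2 fold change of -0.45 ± 0.09 (adjusted p of 0.00502). Its exons overlap Wbp1 on the opposite strand, which had 39.1% as many counts and a log2 fold change of 0.00. The membrane-bound relative of calreticulin, Canx, had -0.24 (adjusted p of 0.0983), the folding sensor Uggt1 had -0.14 (0.443) and the glucosidase subunit Ganab had -0.21 (0.0919). Of these 3, the groups were separate in Ganab, at 209 to 231 normalised CPM in TG and 247 to 266 in WT.

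Disulfide bonds are made by protein disulfide isomerases, which are re-oxidised by ERO1 oxidases and by peroxiredoxin 4. Of 11 such genes 5 were lower, and the median log2 fold change was -0.37. The oxidase Ero1a (ENSMUSG00000021831, chromosome 14, 45520541 to 45556228, minus strand) had the smallest p of all 47 genes. It had 31.2, 28.1, 31.2 and 31.0 normalised CPM in TG and 68.7, 70.3, 53.5 and 58.9 in WT. The TG libraries were nearly equal and far below the WT libraries, and the log2 fold change was -1.05 ± 0.10 with an adjusted p of 6.94e-05. Its relative Ero1b, the oxidase of secretory tissues such as pancreas, had a log2 fold change of 0.09 ± 0.16 (adjusted p of 0.725).

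Among the isomerases, Pdia4 had 89.5, 77.5, 114 and 104 normalised CPM in TG and 116, 172, 203 and 239.7 in WT. TG replicate 3 came close to WT replicate 1, and the log2 fold change was -0.93 ± 0.21 with an adjusted p of 0.0168. Pdia6 had 386, 332, 414 and 481 in TG and 504, 527, 541 and 624 in WT on the same scale. Its groups did not overlap, with a log2 fold change of -0.45 ± 0.12 (adjusted p of 0.0184). Pdia3 (ERp57), which works on glycoproteins held by calreticulin and calnexin, had 510.3, 432, 590.3 and 628 normalised CPM in TG and 649, 690.2, 800.3 and 885 in WT. It was lower at -0.49 ± 0.13 with an adjusted p of 0.0218, again without overlap.

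Txndc11, a thioredoxin domain protein of the ER membrane, had 56.7, 54.5, 61.2 and 69.9 normalised CPM in TG and 72.8, 79.5, 74.9 and 85.4 in WT. The difference was smaller but the groups were separate, at a log2 fold change of -0.37 ± 0.09 (adjusted p of 0.0163). P4hb, the classical protein disulfide isomerase PDI and the most abundant of the 47 genes, had 2688, 2291, 2796 and 3432 normalised CPM in TG and 3832, 3302, 3006 and 3811 in WT. TG replicate 4 exceeded WT replicates 2 and 3, and the log2 fold change of -0.32 ± 0.14 did not pass the test (adjusted p of 0.141). Pdia5, Txndc5, Tmx1 and Prdx4 had log2 fold changes of -0.37, -0.24, -0.17 and -0.09, with adjusted p of 0.0632 to 0.737. Pdia5 passed the test in 6 of the 18 alternative settings, among them the replicate block (adjusted p of 0.0101).

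Of the prolyl isomerases, which speed the turning of proline bonds, 2 of 3 were lower. Fkbp11 had 41.2, 37.1, 53.5 and 61.4 normalised CPM in TG and 81.3, 71.0, 74.7 and 88.6 in WT. Every TG library lay below every WT library, with a log2 fold change of -0.71 ± 0.14 (adjusted p of 0.00608). Ppib (cyclophilin B) was lower at -0.34 ± 0.11 with an adjusted p of 0.0471, and Fkbp2 had -0.23 (adjusted p of 0.0865). Ppib lost its call in 10 of the 18 alternative settings. Exons of Fkbp2 overlap Ppp1r14b on the opposite strand, which had 49.6% as many counts and a log2 fold change of -0.44, so values of Fkbp2, its ratios included, are uncertain.

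Of the ERAD genes, 6 of 15 were lower, and the median log2 fold change was -0.19. The ubiquitin ligase at the core of the pathway is HRD1, encoded by Syvn1, and SEL1L holds it together with the substrate receptors. Syvn1 had 90.6, 71.8, 102 and 113 normalised CPM in TG and 123, 156, 143 and 150.4 in WT. The groups did not overlap, and the log2 fold change was -0.60 ± 0.13 with an adjusted p of 0.00610. Sel1l had 376, 329, 346 and 363 in TG and 299.7, 398, 347 and 453 in WT on the same scale. All TG values fell within the WT range, and the log2 fold change was -0.08 ± 0.12 (adjusted p of 0.659).

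Vcp, the ATPase that pulls substrates out of the membrane, had 159, 136, 182 and 190.4 normalised CPM in TG and 218, 226, 235 and 261 in WT. It was lower without overlap, at -0.49 ± 0.11 and an adjusted p of 0.00770. Derl2, a membrane protein of the retrotranslocation channel, had 34.7, 30.7, 40.1 and 38.2 in TG and 42.6, 50.8, 44.2 and 56.9 in WT. The groups were separate but TG replicate 3 lay near WT replicate 1, and the log2 fold change was -0.44 ± 0.11 with an adjusted p of 0.0158. Exons of Derl2 overlap Mis12 on the opposite strand, which had 44.7% as many counts and a log2 fold change of -0.53.

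Of the further ERAD genes, Selenos (which recruits VCP to the membrane), Derl1 and the ubiquitin-conjugating enzyme Ube2j1 were lower, at -0.37, -0.33 and -0.29, with adjusted p of 0.0288, 0.0268 and 0.0483. The groups overlapped in Ube2j1, which kept its call in only 5 of the 18 alternative settings and lost it with a replicate block (adjusted p of 0.0601). The genes that trim or recognise glycans of misfolded proteins are Edem1, Edem2, Edem3, Man1b1, Os9 and Erlec1. Their log2 fold changes lay between -0.21 and -0.04, and none of these 6 passed the test. Herpud1, a scaffold of the HRD1 complex and a UPR target, had -0.19 (adjusted p of 0.302), and Derl3 had 0.12 (adjusted p of 0.761) at 9.64 ± 2.26 normalised CPM (mean ± SD, n = 4) in TG against 8.90 ± 2.92 in WT.

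Per exon length, as TPM, a unit that corrects for gene length and library size, the levels spanned a wide range. In WT the highest was P4hb at 946 ± 80.9 TPM, followed by Calr at 275 ± 62.5, Hspa5 at 258 ± 82.7, Txndc5 at 171 ± 33.3 and Pdia3 at 166 ± 42.3 (SD, n = 4). P4hb stood apart from the next gene by far more than these SDs, whereas Calr and Hspa5, and likewise Txndc5 and Pdia3, differed by less. Prdx4 and Derl3 were lowest, at 3.82 ± 1.66 and 4.58 ± 1.72 TPM. Summed over the 47 genes, normalised CPM were 11163, 9548, 11888 and 13095 in TG and 14048, 14845, 14764 and 17824 in WT. The groups did not overlap, and the TG mean was 0.743 of the WT mean.

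As a share of all counts, a measure that uses no TMM factors, the 47 genes made up 1.19 ± 0.118% (mean ± SD, n = 4) in TG against 1.48 ± 0.201% in WT. On this scale WT replicate 1, at 1.19% (95% Wilson interval 1.18 to 1.19%, counting error only), fell within the TG range of 1.04 to 1.30%, while the other WT libraries had 1.51 to 1.62%. WT replicate 1 also had the largest share of alpha-defensin counts, 33.9%, and the lowest TMM factor. Without alpha-defensin genes in the total, the members took 1.44 to 1.76% in TG and 1.79 to 2.30% in WT, and the groups did not overlap. Without P4hb this share was 1.09 to 1.35% in TG and 1.30 to 1.81% in WT, so the groups then overlapped through WT replicate 1. Summed TPM also overlapped, at 2446 to 3202 in TG and 2543 to 4051 in WT, whereas summed normalised CPM did not overlap with or without P4hb. In bulk samples fewer cells of a type and less RNA per cell cannot be told apart, and this holds for all values given here.

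Ratios of counts between relatives within a library do not depend on any scaling between libraries, and they show where relatives changed unequally. The ratio of Hspa5 to Hsp90b1 was 1.57, 1.47, 1.65 and 1.68 in TG and 2.66, 2.42, 2.19 and 2.49 in WT. The ratio of Ero1a to Ero1b was 0.435, 0.490, 0.471 and 0.390 in TG and 1.28, 1.28, 0.881 and 0.664 in WT. Each ratio was lower in every TG library than in any WT library. Sdf2l1 to Sdf2 was likewise lower in TG, at 2.37 to 4.43 against 4.85 to 7.41, and Fkbp2 to Fkbp11 was higher, at 0.684 to 0.939 against 0.536 to 0.600. In the other 13 of the 17 pairs examined, including all pairs among Pdia3, Pdia4, Pdia5 and Pdia6 and among the EDEM genes, the groups overlapped. No test was made on these ratios.

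The libraries of a group also differed among themselves in a shared way. TG replicate 2 had the lowest level of the TG group for 43 of the 47 genes and TG replicate 4 the highest for 28. In WT, replicate 1 was lowest for 25 and replicate 4 highest for 35. The number of members called was 12 without TG replicate 1, 13 without TG replicate 2 and 14 without WT replicate 4, and 21 to 25 without any other library. The share of all genes tested that were lower also fell in those 3 fits, to 4.58%, 4.72% and 7.04% from 9.65%. Of the 25 called genes, 12 were called whichever library was left out: Hspa5, Hspa13, Dnajb9, Dnajb11, Dnajc10, Manf, Calr, Mogs, Ero1a, Fkbp11, Syvn1 and Vcp.

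The change was also taken within replicates 1 and 2, which had no Y-linked counts, and within replicates 3 and 4, which had them. With 2 libraries per group, edgeR called 18 members lower in the first pair, where 5.29% of all genes were lower, and 9 in the second, where 0.865% were. None was higher in either pair, also at an unadjusted p below 0.05, and the fitted values were lower in TG for 42 and for 46 of the 47. Hspa5 had log2 fold changes of -0.93 and -0.99 in the 2 pairs, and Ero1a had -1.23 and -0.85. By an interaction term the change differed between the pairs for 0 of the 47 genes in edgeR, with 2 at an unadjusted p below 0.05 and a smallest adjusted p of 0.837. Over all 11929 genes the same term gave 3 calls and 684 genes at an unadjusted p below 0.05, so these counts are read as no more than the background. No other tool was run for this term.

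**Figure D4:**
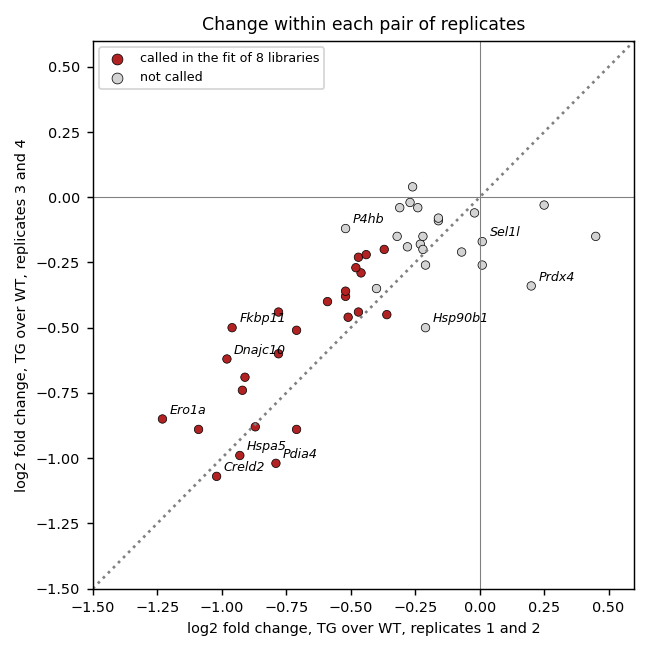
Log2 fold change of TG over WT for the 47 genes within replicates 1 and 2 (horizontal) and within replicates 3 and 4 (vertical), with genes called in the fit of 8 libraries in red, the others in grey and a dotted line of equal values. All red points lie below 0 on both axes, and Prdx4 and Sel1l are among the grey points with opposite signs.

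When libraries were scaled by their total counts alone, 11 members were lower and 0 higher, where 2.20% of all genes were lower, and higher genes made up 75.0% of all calls in place of 46.1%. The median over all genes then went from 0.01 to 0.12 and that of the members from -0.37 to -0.25 (log2), a shift that this scaling gives to members and other genes alike. The 11 were Hspa5, Hspa13, Dnajb9, Dnajc10, Sdf2l1, Manf, Calr, Pdia4, Ero1a, Fkbp11 and Syvn1. No called member changed sign under this or any other setting tried.

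The elements shown above occurred both in promoters of genes that fell and in those of genes that did not pass the test. Of the 14 members with an ERSE or ERSE-II in the promoter, 9 were lower, with a median log2 fold change of -0.52, and of the 33 with neither, 16 were lower, with a median of -0.32. The lower genes with an element were Hspa5, Creld2, Dnajc3, Calr, Pdia6, Syvn1, Hyou1, Manf and Dnajb11. Hsp90b1 with 2 copies of ERSE, and Canx, Ero1b, Derl3 and Herpud1, had an element and did not pass the test. Conversely Ero1a, Dnajc10, Dnajb9 and Hspa13, which had the smallest p, had no exact match to either in this window.

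**Figure D5:**
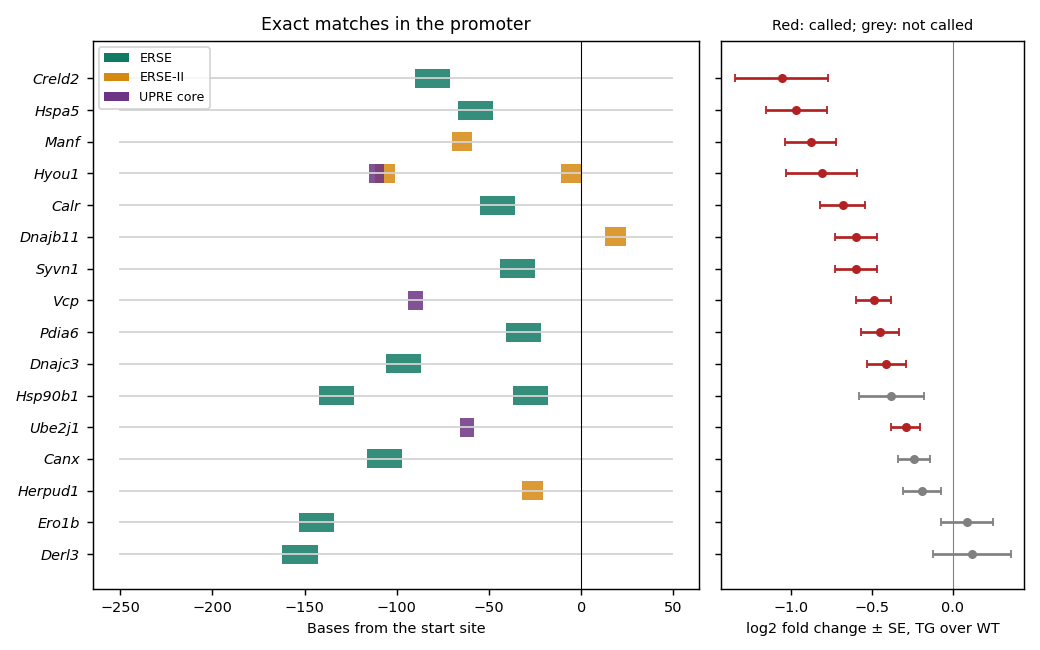
Left, positions of exact ERSE (green), ERSE-II (orange) and UPRE core (purple) matches on either strand, in bases from the start site, in the promoters of the 16 members that hold any. Right, the log2 fold change of TG over WT with its SE for the same genes, in red where called, which ranges from -1.06 for Creld2 to 0.12 for Derl3.

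Further genes of the pathway that are not members were read from the same fit. Of 27 folding genes tested (30 listed), 4 were lower (14.8%, where 9.65% of all genes tested were) and 1 was higher. Their median log2 fold change was -0.10. The higher gene was Uggt2, at 0.98 (adjusted p of 0.0160), with a mean of 3.19 normalised CPM in TG against 1.61 in WT. Mcfd2 (a cargo receptor subunit for ER export), Erp29 and Erp44 (thioredoxin-fold proteins of the early secretory pathway) had the smallest p. Their log2 fold changes were -0.54, -0.59 and -0.46, with adjusted p of 0.00208, 0.00428 and 0.00816. Of 24 further ERAD genes, 4 were lower (16.7%), and 0 were higher by edgeR, with 2 higher at an unadjusted p below 0.05, 1 called higher by DESeq2 and 2 by limma voom. Nploc4 (a cofactor of VCP) and the ubiquitin-conjugating enzymes Ube2k and Ube2g2 had -0.39, -0.38 and -0.46, with adjusted p of 0.00492, 0.00562 and 0.00703.

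Of 20 UPR sensors, factors and effectors, 1 was lower (5%) and 1 higher by edgeR, with 3 lower and 2 higher by DESeq2 and 3 lower and 1 higher by voom. Nothing is read from these counts. Eif2ak3, the sensor PERK, was lower at -0.28 ± 0.09 with an adjusted p of 0.0354. Creb3l3, an ER-bound transcription factor of enterocytes and hepatocytes, was higher, at 3.18 ± 1.23 normalised CPM (mean ± SD, n = 4) in TG against 0.205 ± 0.189 in WT, with an adjusted p of 7.51e-04. Atf6b had -0.25 (adjusted p of 0.0686). The factors Xbp1 and Atf6 did not pass the test, at 0.00 and -0.27 (adjusted p of 0.987 and 0.0850). Nor did Ern1 and Ern2, which encode IRE1 proteins, at 0.23 and 0.13 (adjusted p of 0.127 and 0.419).

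Markers of other cell types were read beside these values, as counts over lists of known markers. Of 12 enterocyte markers tested, 5 were higher in TG by edgeR (Alpi, Apoa4, Apob, Mttp and Slc5a1), where 8.26% of all genes tested were. DESeq2 called 9 of them higher and voom 3. None was lower by edgeR, DESeq2 or voom, and at an unadjusted p below 0.05 the number lower was 0, 1 and 1. Their median log2 fold change was 1.33, and the list sum overlapped, at 853 to 1080.1 normalised CPM in TG and 738 to 861 in WT. As a share of counts it did not overlap, at 0.0880 to 0.104% against 0.0702 to 0.0811%. The sum was also separate without alpha-defensin counts and as TPM, at TG to WT ratios of 1.22 and 1.49. Vil1, the most abundant by the mean normalised CPM of all libraries, had -0.18 (adjusted p of 0.176). Anpep, which exceeded Vil1 in TG, had 0.19 (adjusted p of 0.256), and Vil1 was the only marker of the 12 with a lower fitted value in TG. Of 11 Paneth markers, 3 were lower (Mmp7, Ang4 and Mptx2), which is 27.3% where 9.65% of all genes tested were lower, and 9 had lower fitted values, with a median log2 fold change of -0.22. Mptx2 had the lowest, at -1.35, below that of any member. The summed Paneth level, most of it from Lyz1, was 0.955 of that in WT as normalised CPM. It was 1.04 as a share of counts, 1.01 without alpha-defensin counts and 1.07 as TPM, with overlapping groups on every scale. Of 8 stem cell markers, 3 were higher (Axin2, Slc12a2 and Rnf43), where 8.26% of all genes tested were, and Smoc2 was lower. Their sums were 2329.8 to 3211 in TG and 2082 to 2841 in WT, and Olfm4 had 0.13 (adjusted p of 0.586).

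The 10 goblet markers (led by Spink4, with 4752 ± 388 normalised CPM in TG against 5698 ± 867 in WT, SD, n = 4) and the 6 tested tuft markers (led by Trpm5) had 0 calls by edgeR, DESeq2 and voom. At an unadjusted p below 0.05, edgeR had no tuft marker and 1 lower goblet marker, Agr2. It had -0.65 (adjusted p of 0.0532), at 602 to 1352 normalised CPM in TG and 1397 to 1857 in WT, without overlap. Of 5 enteroendocrine markers tested, Tac1 was lower, and Sct had -0.04 (adjusted p of 0.886). Fitted values were lower in TG for 4 of the 5, with a median log2 fold change of -1.66. Plasma cells, which have an extensive ER of their own, were near absent by their defining markers, with 2 counts of Jchain, 1 of Mzb1 and 4 of Igkc over the 4 TG libraries and 3, 0 and 4 over the 4 WT libraries. Of the other immune markers reported, Adgre1 was at 0 in all libraries, and only Lyz2 was abundant enough to be tested (0.43, adjusted p of 0.484). What part the Paneth, enterocyte and stem cell markers, the mitochondrial share or single libraries have in the lower level of ER genes was not tested.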

How the data were processed

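RNA of 8 libraries of sorted Paneth cells was sequenced after stranded poly(A) library preparation. The authors deposited whole-number counts per Ensembl gene ID. The submitters' processing notes name FastQC 0.12.0, STAR 2.7.0a, DESeq2 and the mm39 build, while no counting tool, strand setting or annotation was named (not given in the sources used here). Genes that overlap a neighbour are therefore uncertain, and 8 members have an overlapping partner with at least 10% as many counts. Symbols and positions came from GENCODE M39 on GRCm39, which matched 54749 of 55414 IDs. The unmatched IDs made up 0.015% or less of any library.

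Counts were tested with edgeR 4.0.16 in R 4.3.3 (TMM, filterByExpr, robust quasi-likelihood F test, group as the only term, all 8 libraries, Benjamini-Hochberg over 11929 genes at 0.05). Fold changes compare TG to WT on the log2 scale, and each standard error was obtained by dividing the log2 fold change by the root of F. The members, the pathway lists and the marker lists were chosen with earlier results of these data known. Values in every library are given for the 16 called genes of smallest p whose groups did not overlap and for Hspa5, Hsp90b1, Pdia3, P4hb, Sel1l and Vcp. Of each pathway list the 3 genes of smallest p, and of each marker list the most abundant gene, are named, and other marker and pathway genes named were picked after their values were seen, as were the ratio pairs, the motifs and the ranking of libraries. The fits were tested on simulated data. Replicates were checked for duplicates, and chi-square per degree of freedom was at least 5.2. Precision is set by 4 libraries per group, and by counting error for the rarest members. Alternatives were DESeq2 1.42.0, limma 3.58.1 voom with sample weights, RLE factors, total counts alone, factors without alpha-defensin genes, 2 other filters, a replicate block, replicates 1 and 2 or 3 and 4 alone, and each library left out. TPM used the summed exon length of each gene. Protein sequences were not analysed here. Whole promoters are printed for Hspa5 and Hyou1 only, as examples of ERSE and ERSE-II. Of the immune markers, 1 marker is not reported here.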

Additional observations from a re-analysis of the deposited data

Results flagged for a closer look

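Over 96 groups of 4 libraries (the 47 genes and their sum, in TG and in WT), 3 held a library far from the other 3, where chance gives about 1 in 20 groups, or 4.80. All 3 were TG replicate 2. Ero1a had 28.1 normalised CPM there and 31.0 to 31.2 in the other TG libraries, a gap that took 0.934 of the range. Edem3 had 145 against 166 to 167, a gap of 0.951 of the range, and Erlec1 had 47.4 against 51.0 to 51.2, a gap of 0.944. Without TG replicate 2, Ero1a was still called lower, and Edem3 and Erlec1 were called neither with nor without it. The cause of the lower values in this library was not tested.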

How the results depend on the processing

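Members lower in TG, 25 in number, were 23 to 29 with DESeq2, voom, RLE factors, factors without alpha-defensin genes and the other filters, 18 in replicates 1 and 2, 9 in replicates 3 and 4 and 11 with total counts. With any 1 library left out they were 12 to 25, with 12 for TG replicate 1, 13 for TG replicate 2 and 14 for WT replicate 4. The number higher was 0 throughout, in all 18 alternatives. Hspa5, Hspa13, Dnajc10, Manf and Ero1a were called in all 18, and 6 uncalled members (Hsp90b1, Canx, Ganab, Pdia5, P4hb and Txndc5) were called in some. Other pathway genes lower, 9 in number, were 14 with voom, 4 in replicates 1 and 2, 0 in replicates 3 and 4 by edgeR (with 4 ERAD, 5 folding and 2 UPR genes lower there at an unadjusted p below 0.05; no other tool was run) and 1 with total counts, and 6 to 12 when a library was left out. Those higher, 2 in number, were 4 with DESeq2, 4 with voom and 1 within either pair of replicates, and 1 (without TG replicate 2) to 4 (without WT replicate 2) when a library was left out. The difference in summed share was -0.292 percentage points of all counts, and -0.390 to -0.242 when a library was left out. It was -0.458 points of the counts without alpha-defensin genes and -0.0607 points of summed TPM. These bases are unlike, and the ratios of the TG mean to the WT mean were 0.802, 0.781 and 0.823 in that order. The causes of these differences were not tested. The fits of single pairs and of 7 libraries also hold fewer libraries than the main fit.

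Signs changed only in 7 uncalled members. In replicates 1 and 2, Uggt1 was 0.01, Prdx4 0.20 and Sel1l 0.01. In replicates 3 and 4, Sil1 was 0.04, Ero1b -0.03 and Derl3 -0.15. With total counts, Sil1 was 0.02, Prdx4 0.02, Edem2 0.07 and Sel1l 0.03. When a library was left out, Prdx4 ran from -0.22 to 0.10 (above 0 without WT replicate 3), Edem2 from -0.10 to 0.04 (above 0 without WT replicate 4, and 0.01 without TG replicate 2), Derl3 from -0.07 to 0.30 (below 0 without WT replicate 1, and 0.00 without TG replicate 3) and Sel1l from -0.18 to 0.02 (above 0 without WT replicate 4).

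Single replicate numbers were not taken as pairs, since libraries of the same number deviated together with r of 0.076, 0.067, 0.29 and 0.23 across genes, not all above 0.1. Numbers were still tied to the Y-linked counts, and TG replicates 1 and 2 correlated best with WT replicates 2 and 1, and TG replicates 3 and 4 with their own numbers. With the replicate block 25 members were lower and 0 higher, with Pdia5 gained and Ube2j1 lost, and 9 other pathway genes were lower and 2 higher. Depth limits Derl3 and Prdx4 most among the members.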
